A study of Mus musculus with 9 samples.

Results

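Collagen genes encode the chains of the collagens, the main structural proteins of the extracellular matrix. The 44 collagen genes described here were taken from the 21938 protein-coding genes of the mouse annotation. Their symbol is Col, a number, a and a number. The family was picked with earlier results of these data known, but its members follow from the symbol alone. They were examined for non-methylated islands (NMIs) in C127 cells, a mouse mammary epithelial cell line, which carried no treatment or engineered allele according to the labels. NMIs are stretches of DNA whose CpG sites lack methylation. They came from 1 library made by BioCAP, which captures non-methylated CpG DNA on a resin carrying the CXXC domain of KDM2B. The same series holds 1 BioCAP input, 3 ATAC libraries, 1 ATAC input and 3 libraries of newly made RNA, which were not analysed here, so nothing below measures expression.

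Collagens are trimers of chains wound into a triple helix. Fibrillar collagens assemble into the fibers of bone, skin, tendon and cartilage. Type IV collagens form the sheet-like network of basement membranes, on which epithelia such as that of the mammary gland rest. Other types decorate fibrils, form beaded filaments or span the cell membrane. Several collagen genes lie side by side, and the type IV genes are arranged head to head, so that a single stretch of DNA separates the 5′ ends of both members of a pair. In mammals, non-methylated DNA at a 5′ end is typical of CpG islands, and it marks promoters of many genes whether or not they are transcribed.

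To show what kind of DNA the comparisons rest on, 7 promoter sequences are given from the GRCm38 (mm10) reference of RefSeq. Each holds 250 bases before and 50 bases from the 5′ end of the main coding transcript onward, 5′ to 3′ on the strand of the gene, with CpG sites in capitals. The first, chr8:11312555-11312854 (plus strand), lies wholly inside the NMI shared by Col4a1 and Col4a2. The next, chr1:82586800-82587099 (minus strand), has its first 138 bases in the NMI of the neighboring Col4a3 and its last 162 bases outside. The Col4a5 promoter, chrX:141475135-141475434 (plus strand), has no base in an NMI.
Col4a2: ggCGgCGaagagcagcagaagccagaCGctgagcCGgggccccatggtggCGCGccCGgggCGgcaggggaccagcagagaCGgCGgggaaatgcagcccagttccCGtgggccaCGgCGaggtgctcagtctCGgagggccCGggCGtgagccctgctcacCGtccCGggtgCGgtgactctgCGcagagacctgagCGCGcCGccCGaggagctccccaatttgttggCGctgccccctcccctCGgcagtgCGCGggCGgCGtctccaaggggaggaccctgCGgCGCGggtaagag
Col4a4: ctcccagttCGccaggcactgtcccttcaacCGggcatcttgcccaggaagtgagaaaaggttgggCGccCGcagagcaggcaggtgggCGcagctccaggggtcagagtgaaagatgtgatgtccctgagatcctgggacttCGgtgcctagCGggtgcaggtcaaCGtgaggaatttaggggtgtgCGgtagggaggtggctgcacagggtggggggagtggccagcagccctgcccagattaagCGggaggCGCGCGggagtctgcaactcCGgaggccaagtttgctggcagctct
Col4a5: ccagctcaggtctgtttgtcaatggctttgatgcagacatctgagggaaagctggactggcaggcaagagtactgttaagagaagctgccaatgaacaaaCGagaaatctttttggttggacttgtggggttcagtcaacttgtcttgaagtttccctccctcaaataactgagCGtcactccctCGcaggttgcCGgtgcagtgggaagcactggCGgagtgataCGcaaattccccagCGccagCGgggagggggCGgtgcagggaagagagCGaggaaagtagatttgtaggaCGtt
These windows hold 33, 14 and 11 CpG sites, respectively. The Col4a2 window also contains the 5′ end of Col4a1 on the opposite strand.

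A second set shows a pair of fibrillar promoters that differ in NMI state. The Col1a2 window, chr6:4505243-4505542 (plus strand), lies wholly inside an NMI. The Col3a1 window, chr1:45311288-45311587 (plus strand), lies outside NMIs.
Col1a2: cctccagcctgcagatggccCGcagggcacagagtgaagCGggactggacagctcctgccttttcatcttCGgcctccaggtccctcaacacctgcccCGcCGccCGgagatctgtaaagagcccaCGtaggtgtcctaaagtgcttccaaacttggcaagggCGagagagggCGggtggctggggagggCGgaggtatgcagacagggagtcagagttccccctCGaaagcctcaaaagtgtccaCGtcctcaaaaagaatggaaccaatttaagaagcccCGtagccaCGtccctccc
Col3a1: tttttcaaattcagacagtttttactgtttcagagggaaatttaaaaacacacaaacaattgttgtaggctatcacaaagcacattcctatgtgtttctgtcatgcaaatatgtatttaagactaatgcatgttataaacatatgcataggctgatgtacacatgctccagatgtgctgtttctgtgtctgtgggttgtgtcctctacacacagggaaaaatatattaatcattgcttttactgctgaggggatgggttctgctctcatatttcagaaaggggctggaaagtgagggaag
Col1a2 has 14 CpG sites in its window and Col3a1 has 0.

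The last pair are both dense in CpG and differ in state. The Col5a1 window, chr2:27886175-27886474 (plus strand), lies wholly inside an NMI, and the Col23a1 window, chr11:51289670-51289969 (plus strand), has no base in one.
Col5a1: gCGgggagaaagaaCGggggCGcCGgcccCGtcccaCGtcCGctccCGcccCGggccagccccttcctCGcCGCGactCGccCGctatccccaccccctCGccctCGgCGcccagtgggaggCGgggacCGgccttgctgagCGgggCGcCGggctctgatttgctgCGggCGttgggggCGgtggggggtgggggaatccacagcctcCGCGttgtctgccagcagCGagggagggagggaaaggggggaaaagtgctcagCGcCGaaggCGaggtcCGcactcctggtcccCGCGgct
Col23a1: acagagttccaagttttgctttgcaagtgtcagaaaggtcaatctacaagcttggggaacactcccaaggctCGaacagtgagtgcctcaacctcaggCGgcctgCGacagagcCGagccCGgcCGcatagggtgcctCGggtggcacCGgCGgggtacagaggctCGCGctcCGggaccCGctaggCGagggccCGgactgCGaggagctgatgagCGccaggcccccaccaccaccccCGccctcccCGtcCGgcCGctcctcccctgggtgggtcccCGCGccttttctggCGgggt
They hold 34 and 24 CpG sites.

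A gene was counted as having an NMI when the 5′ end of any of its annotated transcripts, its transcription start site (TSS), lay in an NMI by at least 1 bp. Of the 44 collagen genes, 14 had an NMI (31.8%, exact 95% binomial interval 18.6 to 47.6%) and 30 did not. Over all protein-coding genes the share was 47.5% (10425 of 21938), which lies at the upper end of that interval. The 14 genes were covered by 13 distinct NMIs, because Col4a1 and Col4a2 share 1. These NMIs were 368 to 2007 bp wide with a median of 1258 bp, against 1173 bp for the 9581 NMIs at protein-coding TSSs. The whole list held 13491 NMIs of 114 to 11019 bp with a median of 990 bp. With 1 library and no score there was no replicate error to test against, the depth is unknown, and the intervals cover counting error only and treat genes as independent.

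The labelled cell type could be checked only through NMIs, since marker expression was not measured here. Of 6 epithelial marker genes (Cdh1, Epcam, Krt8, Krt18, Krt5 and Krt14), 0 had an NMI at a TSS (interval up to 45.9%), against 47.5% of all protein-coding genes. Of 6 mesenchymal marker genes, 3 had one (50.0%, 11.8 to 88.2%), and the intervals of both lists overlap. They were Vim (2719 bp), Cdh2 (3054 bp) and Pdgfra (2538 bp). Pdgfrb, Fap and Acta2 had none. An NMI is not a measure of expression, and what these marker states say about the cells was not tested.

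Among the 11 fibrillar collagen genes, 5 had an NMI (45.5%, 16.7 to 76.6%). The count was 2 with the outermost TSS alone and 3 with NMIs wider than 572.5 bp, the lower quartile of the list. The widest of these, 1506 bp (chromosome 2, 27885873 to 27887378), lay at Col5a1, which encodes a chain of type V collagen, a component that limits the width of type I fibrils. It reached from 552 bp upstream to 953 bp downstream of the main coding 5′ end, covering 500 bp of exon 1 and 454 bp of intron 1, and it had 8.37 CpG per 100 bp. A second type V gene, Col5a3, had an NMI of only 430 bp (chromosome 9, 20814889 to 20815318) that spanned 251 bp upstream and 179 bp of exon 1. Col27a1, a fibrillar collagen of cartilage, had the narrowest NMI at a TSS of any member, 368 bp (chromosome 4, 63215221 to 63215588). It too sat across the main coding 5′ end.

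Both type I genes, whose products form the bulk of fibers in bone, skin and tendon, had an NMI, but it was placed differently. At Col1a2 an NMI of 1461 bp (chromosome 6, 4505184 to 4506644) ran from 309 bp upstream to 1151 bp downstream of the main coding 5′ end, through 417 bp of exon 1 and into intron 1. At Col1a1 an NMI of 1386 bp (chromosome 11, 94936747 to 94938132) began 523 bp downstream of the main coding 5′ end and ended at 1908 bp. It took up 1163 bp of intron 1, 195 bp of exon 2 and 28 bp of intron 2. Col1a1 counted as having an NMI only because a non-coding transcript starts inside it. These NMIs were comparatively poor in CpG, with 3.29 per 100 bp at Col1a2 and 3.75 at Col1a1.

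The other 6 fibrillar genes had no NMI at a TSS. They were Col2a1 (the main collagen of cartilage), Col3a1 (type III, of vessels and skin), Col5a2 (the partner of Col5a1 in type V), Col11a1 and Col11a2 (type XI of cartilage) and Col24a1. Their nearest NMI lay between 6535 bp (Col11a2) and 483485 bp (Col3a1) from the main coding 5′ end. For Col24a1 this distance was 173219 bp. A non-coding transcript that starts 222896 bp inside Col24a1 was 6345 bp from an NMI. Col3a1 and Col5a2 lie tail to tail, 24614 bp apart, and neither had an NMI.

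**Figure D1:**
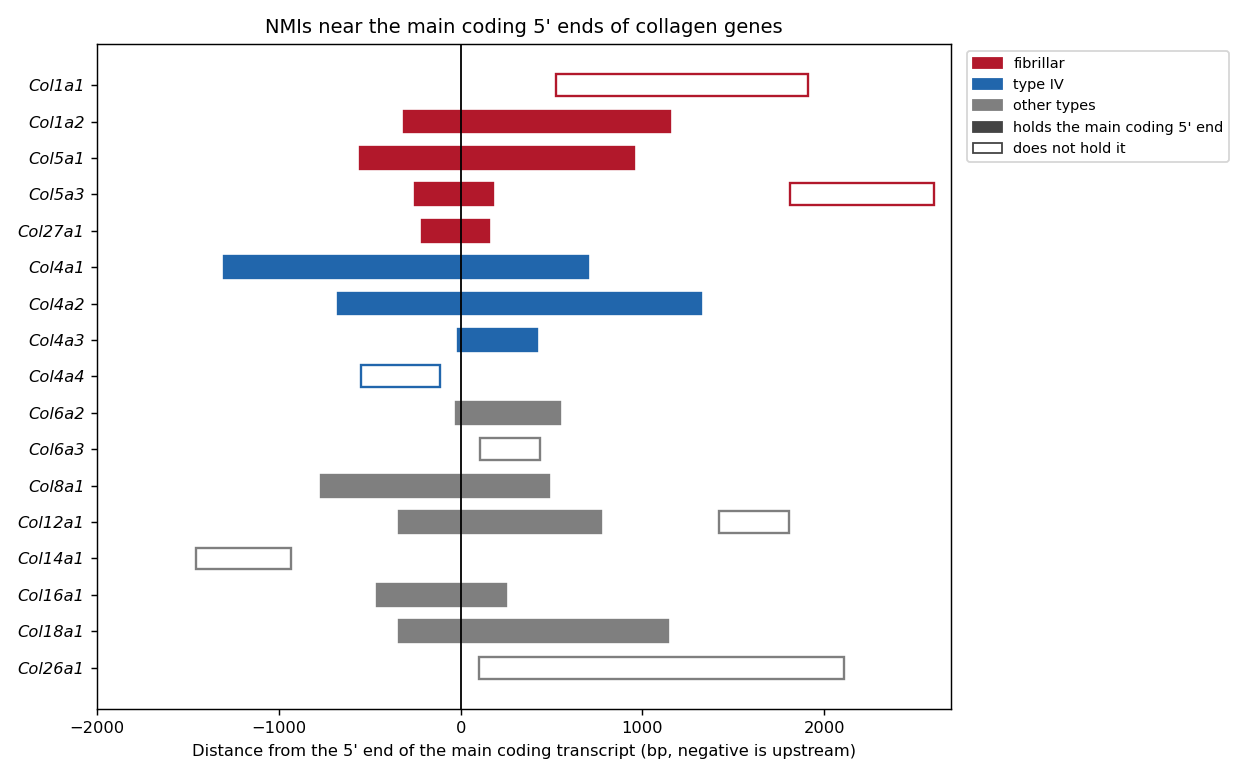
Each bar is an NMI drawn along the distance in bp from the 5′ end of the main coding transcript (negative is upstream), for the collagen genes with an NMI near that end. Filled bars hold that 5′ end and open bars do not: 12 genes have a filled bar, the Col1a1 and Col26a1 bars start 523 and 102 bp downstream, and the open bar of Col4a4 is the same NMI as the filled bar of Col4a3.

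Type IV collagens showed 3 states in 3 head-to-head pairs, and 3 of the 6 genes had an NMI (50.0%, 11.8 to 88.2%). Col4a1 and Col4a2, which encode the chains found in nearly all basement membranes, overlap at their 5′ ends, which are 21 bp apart. A single NMI of 1999 bp (chromosome 8, 11312128 to 11314126) held both. It extended 698 bp into Col4a1 and 1321 bp into Col4a2, where it reached past exon 3 into intron 3, and it had 7.45 CpG per 100 bp. Along the chromosome, the DNA from 500 bp before the 5′ end of Col4a2 to 500 bp after that of Col4a1 had a GC content of 70.3%. Its CpG density was 9.59 per 100 bp.

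Col4a3 and Col4a4, whose chains build the basement membrane of the kidney glomerulus, start 72 bp apart by their outermost TSSs. The NMI there was 436 bp (chromosome 1, 82586962 to 82587397). It covered only the Col4a3 side, with 422 bp in exon 1 of Col4a3 and 14 bp upstream of it, and stopped 113 bp short of the 5′ end of Col4a4. The DNA around this pair had 3.81 CpG per 100 bp. Col4a5 and Col4a6 on the X chromosome start 1309 bp apart, and neither had an NMI. Their main coding 5′ ends were 518275 bp (Col4a5) and 516966 bp (Col4a6) from the nearest NMI. A retained-intron transcript that starts 281447 bp inside Col4a6 was nearer to one, at 235519 bp. The DNA around this pair had 1.95 CpG per 100 bp and a GC content of 46.1%. The order of the pairs by CpG density was thus their order by NMI coverage, which rests on 3 pairs. These stretches were of unequal length, at 1022, 1128 and 2310 bp, and the last includes the 1309 bp between the 5′ ends. Within 500 bp of the outermost TSSs the order was the same. There, Col4a1 and Col4a2 had 9.69 CpG per 100 bp each, Col4a3 and Col4a4 4.20 each, Col4a5 2.70 and Col4a6 1.70.

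For comparison, 892 head-to-head pairs of protein-coding genes had 5′ ends within 2000 bp of each other. Both genes had an NMI in 81.7% of them (729 pairs), 1 gene in 8.63% (77 pairs) and neither in 9.64% (86 pairs). In 78.6% (701 pairs) 1 NMI held both, as at Col4a1 and Col4a2. The collagen pairs therefore gave 1 example of each state, and the states of Col4a3/Col4a4 and Col4a5/Col4a6 were the less common ones among head-to-head genes. When an NMI within 250 bp or 1000 bp of a TSS was counted, Col4a4 was included, so that 2 of the 3 pairs had an NMI at both genes and none had it at only 1.

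**Figure D2:**
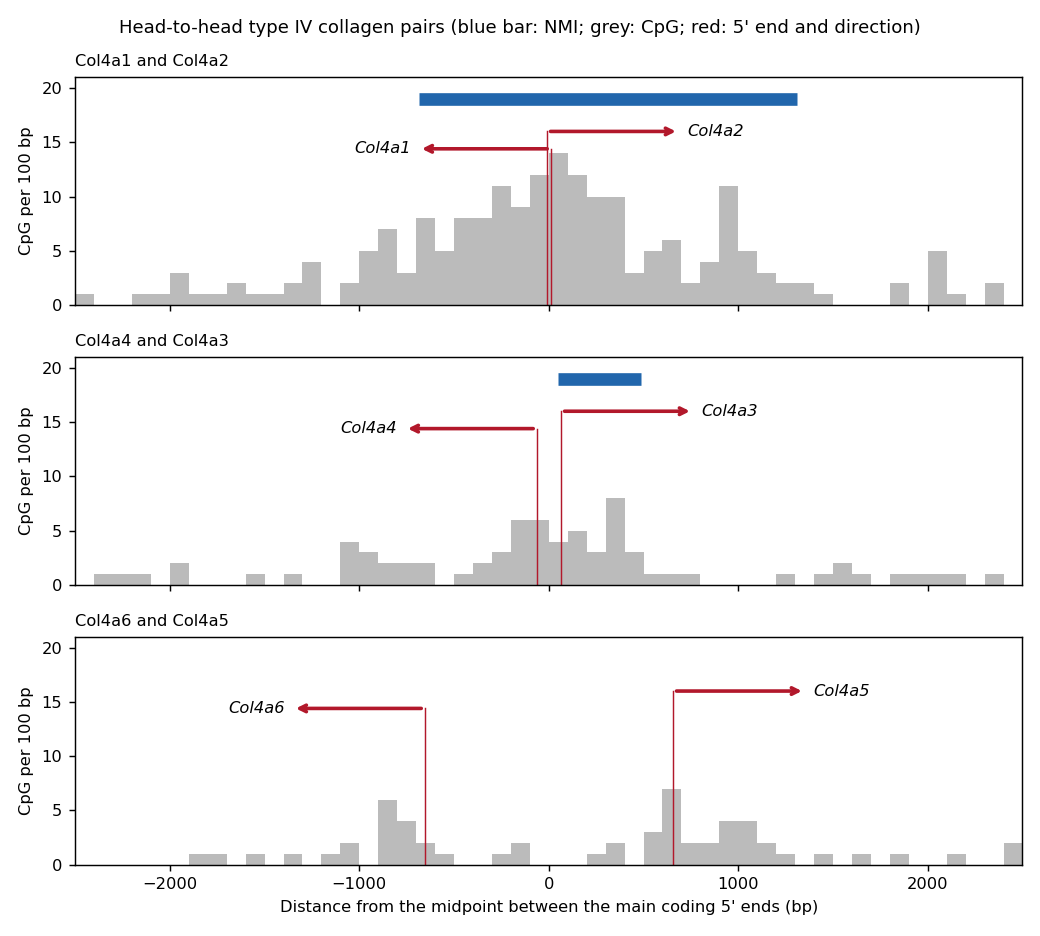
For each head-to-head type IV pair, grey bars give the number of CpG sites in each 100 bp against the distance in bp from the midpoint between the main coding 5′ ends, red lines and arrows give the 5′ ends and directions of transcription, and the blue bar is the NMI. The NMI spans both 5′ ends at Col4a1 and Col4a2 (21 bp apart), only that of Col4a3 in the second pair, and there is none at Col4a5 and Col4a6 (1309 bp apart).

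Of the 27 remaining collagen genes, 6 had an NMI (22.2%, 8.62 to 42.3%), spread over several structural groups. Among the 6 type VI genes, whose chains form beaded filaments around cells, only Col6a2 had one (574 bp, chromosome 10, 76623085 to 76623658, from 28 bp upstream to 545 bp downstream). Col6a1, which lies in tandem with Col6a2 at a distance of 85161 bp, had none, nor did Col6a4, Col6a5 and Col6a6, which lie in tandem on chromosome 9. Col6a3 was a near miss: an NMI of 327 bp (chromosome 1, 90843537 to 90843863) in exon 1 and intron 1 lay 65 bp from its closest TSS. A further 2 NMIs, of 440 and 563 bp, lay in its intron 1.

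Of the 9 FACIT genes, whose products attach to the surface of fibrils, 2 had an NMI. Col12a1 had 1108 bp (chromosome 9, 79717950 to 79719057) with 6.23 CpG per 100 bp, and Col16a1 had 709 bp (chromosome 4, 130047379 to 130048087) with 6.35. The Col16a1 NMI held 6 of 13 distinct TSSs, while the other 7 lay farther into the gene. Col14a1, which like Col12a1 encodes a collagen found on type I fibrils, had an NMI of 523 bp (chromosome 15, 55306295 to 55306817) that ended 933 bp upstream of its TSS. The type IX genes Col9a1, Col9a2 and Col9a3, partners of type II collagen in cartilage, had none, and nor did Col19a1, Col20a1 and Col22a1.

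The short-chain gene Col8a1, for a network-forming collagen of the cornea and vessel wall, had an NMI of 1258 bp (chromosome 16, 57754250 to 57755507). It was the poorest in CpG of the 13, at 2.86 per 100 bp. Col8a2, the partner chain, and Col10a1, of hypertrophic cartilage, had none. Among 3 genes of the basement membrane zone, Col18a1, the precursor of endostatin, had 1477 bp (chromosome 10, 77165410 to 77166886). This NMI held 1 of its 5 TSSs, the outermost. The TSSs of the other basic coding transcripts, farther into the gene, were 23989 and 24230 bp from the nearest NMI. A coding transcript of Col18a1 that is not basic starts 70 bp from an NMI of 219 bp inside the gene (chromosome 10, 77089498 to 77089716). Col7a1 (anchoring fibrils of skin) and Col15a1 had none. The 4 transmembrane collagen genes, Col13a1, Col17a1 (of hemidesmosomes), Col23a1 and Col25a1, had none, a count of 0 whose interval reaches 60.2%.

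Col26a1 had the widest NMI of all members, 2007 bp (chromosome 5, 136881076 to 136883082), with 6.28 CpG per 100 bp. It ended 39 bp short of the nearest coding TSS of the gene and 102 bp short of the outermost coding one. It took up 233 bp of exon 1 and 1774 bp of intron 1, and the TSSs it held belonged to non-coding and retained-intron transcripts. Col28a1, listed here with Col26a1 outside the main groups, had none and had the lowest CpG density of the 44 genes.

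At the main coding 5′ end itself, 12 of the 44 genes had an NMI, all of the 14 except Col1a1 and Col26a1. The count was also 12 when only basic transcripts were used, against 46.4% of protein-coding genes, and when only coding transcripts were used, against 46.7%. It was 13 when 100 bp on each side of a TSS had to lie in the NMI, against 46.5%, and 11 with NMIs wider than the lower quartile of 572.5 bp, against 45.3%. RefSeq gave TSSs for 35 of the genes, of which 10 had an NMI, against 48.0%. At the outermost TSS of the gene, 9 collagen genes had one, against 42.5% of protein-coding genes. The 5 genes whose NMI missed the outermost TSS were Col1a1, Col1a2, Col4a3, Col26a1 and Col27a1, which is 5 of 14. Over all protein-coding genes with an NMI, 10.5% (1095 of 10425) had none at the outermost TSS. The 5 genes had 4, 7, 3, 11 and 7 distinct TSSs, respectively. The part of the number of TSSs in this difference was not tested, and no interval was computed for it. At Col4a3 and Col27a1 the uncovered outermost TSS belonged to a retained-intron transcript, 55 and 1431 bp upstream of the main coding one. Of the 30 genes without an NMI, 3 had one within 1000 bp of a TSS (Col6a3, Col4a4 and Col14a1) and 27 did not. Counting NMIs within 250 bp gave 16 collagen genes, against 48.2% of protein-coding genes, and within 1000 bp gave 17, against 49.0%. Measured from the closest TSS of any transcript, the distances of the 30 ranged from 65 to 518275 bp with a median of 22174 bp.

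Collagen genes also held 17 NMIs at none of their own TSSs, in 12 genes (27.3% of the 44, 15.0 to 42.8%), where 7.6% of protein-coding genes held such an NMI. Collagen genes were longer, with a median length of 114388 bp against 17425 bp over protein-coding genes, and the part of length in this count was not tested. They were up to 793 bp wide with a median of 327 bp, and 15 lay wholly in introns. The exceptions were the NMI at exon 1 of Col6a3 and one at Col9a1 that ran across exons 23 and 24. None held a TSS of another gene. The widest, 793 bp, was in intron 1 of Col5a3, 1812 bp from the TSS, and Col22a1 and Col6a3 had 3 each. Their CpG density, 1.11 to 4.23 per 100 bp with a median of 2.49, was below that of most NMIs at collagen TSSs. Of the 12 genes, 5 also had an NMI at a TSS and 7 did not.

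To see how CpG density related to NMI state, CpG sites were counted within 500 bp on each side of the outermost TSS. The median was 3.25 per 100 bp over collagen genes and 4.10 over all protein-coding genes. Collagen genes with an NMI had a median of 4.60 (1.50 to 9.69) and those without had 2.30 (0.30 to 9.79), so the ranges overlapped almost entirely. Over protein-coding genes the medians were 6.49 with and 1.40 without. All protein-coding genes were then ranked by density into 10 bins of about equal size. The share with an NMI was higher in each next bin, at 1.84%, 5.96%, 11.0%, 15.3%, 41.9%, 69.4%, 77.3%, 82.3%, 83.0% and 83.9%. Collagen genes were most frequent in the middle, with 11 in bin 4 (2 with an NMI), 9 in bin 5 (3 with) and 7 in bin 6 (4 with). In the lower 5 bins 5 of 27 had an NMI (18.5%, 6.30 to 38.1%), against 15.4% of protein-coding genes there. In the upper 5 bins 9 of 17 had one (52.9%, 27.8 to 77.0%), against 79.3%, which lies above that interval. These pooled shares are not matched bin by bin. Most of the 27 lower collagen genes lie in bins 4 and 5, where the protein-coding shares were 15.3% and 41.9%. Of the 17 upper ones, 7 lie in bin 6, where it was 69.4%. If each collagen gene had the share of its own bin, 19.1 of the 44 (43.5%) would have an NMI, where 14 were counted.

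The 8 CpG-rich collagen genes without an NMI were Col23a1 (9.79 CpG per 100 bp), Col15a1 (7.49), Col8a2 (6.99), Col13a1 (6.99), Col2a1 (6.19), Col14a1 and Col19a1 (4.40 each) and Col4a4 (4.20). Col23a1 was as dense as Col4a1, Col4a2 and Col5a1 (9.69 each), which all had an NMI and share the highest bin with it. In that bin 83.9% of protein-coding genes had an NMI. At the other end, Col1a2 (1.50) and Col1a1 (2.30) had NMIs with densities in bin 4, where 15.3% of genes did. For both type I genes the NMI lay downstream of the window counted, in whole or in part, and was itself denser than that window.

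**Figure D3:**
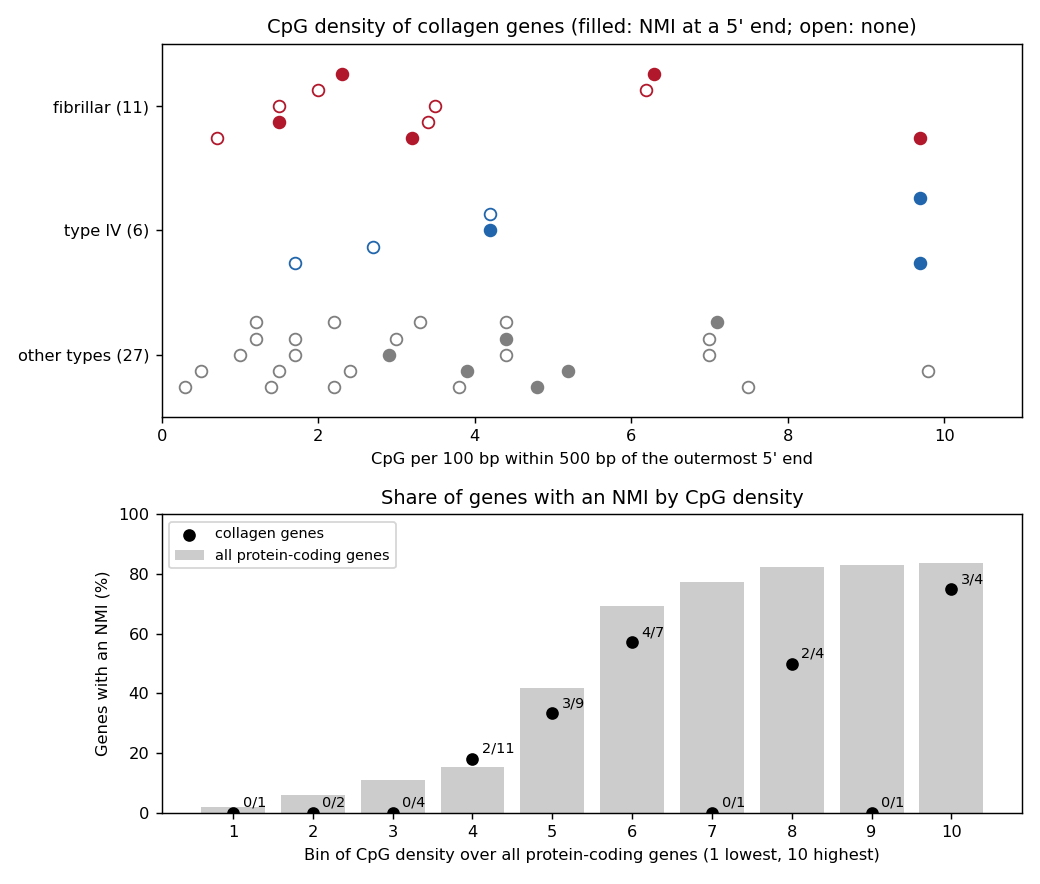
The upper panel places each collagen gene by its CpG sites per 100 bp within 500 bp of the outermost 5′ end, filled where a TSS has an NMI and open where none does, with points spread vertically within each class so that they do not hide one another. The lower panel gives the share of genes with an NMI (%) in each bin of CpG density, as grey bars for all protein-coding genes and as points with counts for collagen genes, which are 2 of 4 in bin 8 and 3 of 4 in bin 10 where the bars reach 82.3% and 83.9%.

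CpG islands were also predicted from sequence alone, by merging all overlapping 500-bp windows that reached 55% GC and 0.65 of the CpG number their base composition predicts. At collagen TSSs there were 16 such islands, and 5 overlapped an NMI (31.2%, 11.0 to 58.7%). Over protein-coding TSSs 74.1% of 12322 islands did, above that interval. The 5 were the island shared by Col4a1 and Col4a2 (2340 bp) and those of Col5a1 (1575 bp), Col12a1 (1894 bp), Col26a1 (2031 bp) and Col27a1 (2620 bp, of which the NMI was only 368 bp wide). Islands over 1200 bp without an NMI were found at Col13a1 (1769 bp), Col25a1 (1481 bp), Col19a1 (1422 bp), Col23a1 (1386 bp) and Col15a1 (1305 bp). Under looser criteria (200 bp, 50% and 0.6), 13 of 34 islands at collagen TSSs overlapped an NMI, against 58.9% at protein-coding TSSs. Of the 14 genes with an NMI, 8 had no predicted island at a TSS (57.1%, 28.9 to 82.3%), Col1a1 and Col1a2 among them. Over all protein-coding genes with an NMI, 5.35% had no predicted island at a TSS (558 of 10425), below that interval.

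Windows of 250 bases before and 50 after the outermost TSS were searched on both strands for promoter motifs, none of which contains another. They differ from windows at the main coding 5′ end where that is not the outermost TSS. At Col1a2, GGGCGG was found 0 times in the searched window and 3 times in the printed one. The letters CCAAT, the core of the element that NF-Y binds, were present in 17 of 44 collagen promoters and in 39.0% of all protein-coding promoters. They were in 7 of the 14 promoters of genes with an NMI and in 10 of the 30 of genes without. The letters GGGCGG, which SP1 binds and which hold a CpG themselves, were in 23 of 44 collagen promoters, against 43.0%. They were in 10 of 14 with an NMI and in 13 of 30 without. The letters TATAAA of the TATA box were in 6 of 44, against 12.6%, which were 1 of the 14 and 5 of the 30. A match is only the presence of the letters.

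Other genes of the collagen pathway were taken by role. Of 52 genes, 33 had an NMI (63.5%, 49.0 to 76.4%), against 47.5% of protein-coding genes. This comparison takes no account of CpG density, and the part of density in it was not tested. The widest NMI of the 52 genes, at P4hb, was narrower than the 2007 bp of Col26a1. Proline and lysine hydroxylation, which stabilizes the helix and prepares crosslinking in the endoplasmic reticulum, had 11 of 12 genes with one, among them P4ha1 (1185 bp) and P4hb (1875 bp), the subunits of prolyl 4-hydroxylase, and Plod2 (1477 bp), a lysyl hydroxylase. P3h2, a prolyl 3-hydroxylase, had none. P4ha1 and Plod2 lie in bin 9 of CpG density, and P4hb and P3h2 in bin 10. In these bins 83.0% and 83.9% of protein-coding genes had an NMI. P4ha2, which had an NMI, lies in bin 3. All 4 export genes (Mia3, Mia2, Sec23a and Sec24d) had an NMI, as did 5 of 6 crosslinking genes, with Lox (1636 bp) included and Loxl2 excepted.

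Among the chaperones, Serpinh1 (781 bp), which encodes the collagen chaperone HSP47, and Ppib (858 bp) had an NMI, while Fkbp10 and Fkbp14 did not. Of the 2 glycosylation genes Colgalt1 (1113 bp) had one and Colgalt2 did not. Of 8 genes of propeptide removal, 5 had one, including Bmp1 (1527 bp), the procollagen C-proteinase, and Adamts3, Tll1 and Tll2 did not.

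Collagen receptors and collagen-degrading enzymes had shares whose intervals include the 47.5% of protein-coding genes. Of 10 receptor genes, 4 had one (40.0%, 12.2 to 73.8%): Itga1 (668 bp), Itgb1 (1155 bp), Ddr1 (1264 bp) and Mrc2 (320 bp). Itga2, Itga10, Itga11, Ddr2, Gp6 and Lair1 did not. Of 6 degradation genes 1 had one (16.7%, 0.42 to 64.1%), which was Mmp14 (1435 bp), a membrane-bound collagenase, and Mmp2, Mmp8, Mmp9, Mmp13 and Ctsk did not. Set beside other matrix and adhesion families, 3 of 11 laminin genes (27.3%, 6.02 to 61.0%) and 11 of 27 integrin genes (40.7%, 22.4 to 61.2%) had an NMI, and the collagen share of 31.8% lies between them within wide intervals.

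**Figure D4:**
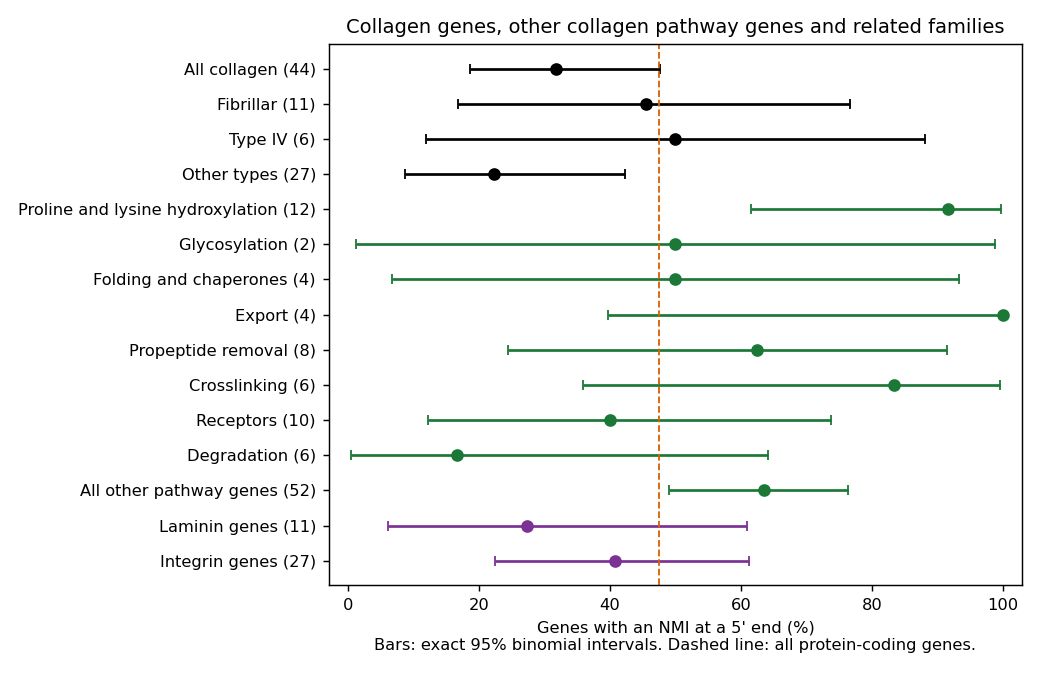
Points give the share of genes with an NMI at a TSS (%), bars its exact 95% binomial interval, with the number of genes in brackets, for collagen classes (black), other collagen pathway genes by role (green) and related families (purple). The dashed line is the 47.5% of all protein-coding genes: hydroxylation (11 of 12) and all 52 pathway genes together lie wholly to its right and the 27 other collagen types (6 with an NMI) wholly to its left, while most intervals cross it. The line takes no account of differences in CpG density between the lists, and the receptor and integrin lists share genes.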

How the data were processed

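BioCAP reads were mapped to mm10 by the authors with Bowtie2. Ambiguously placed reads were dropped, SAMtools removed duplicates, and MACS (MACS2 in the submitters' processing notes) called the NMIs. The study's methods set a q-value threshold and name a matched control for duplicate and triplicate data. Whether the input served for this single library, and the tool versions, were not found in the sources used here. For each NMI the authors deposited a chromosome, a start and an end position in bp, with no score, height or read count. A threshold on enrichment leaves weakly captured DNA out, so a gene without an NMI is one with none in this list, which is no measure of its methylation.

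Starts were converted to count from 1. TSSs came from GENCODE release 21 of the mouse series (M21) on GRCm38, and the main coding 5′ end was the outermost 5′ end of the basic protein-coding transcripts. Sequence came from the RefSeq GRCm38 FASTA. Where a share carries an interval, it is the exact (Clopper-Pearson) 95% binomial interval. No p-value was computed, because there was 1 library. Look-ups and island calls were tested on simulated data. Every collagen gene is named, with full values where it has an NMI at or within 1000 bp of a TSS or belongs to a head-to-head pair. Pathway genes are named where they have no NMI or one wider than any at a collagen gene (none had), and the pathway genes named with an NMI were chosen after their values were seen. The polymorphic pseudogene Mmp1a was not counted. The members and lists were chosen with earlier results of these data known. Alternatives were other TSS sets, distances, NMI widths and island criteria. Python 3.11.15, NumPy 2.4.6, SciPy 1.17.1 and matplotlib 3.10.9 were used.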

Additional observations from a re-analysis of the deposited data

How the results depend on the processing

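Across 9 results and 66 alternatives, 53 values stayed within the margin set for them and 13 moved. The margin was 1.5 times the value for counts, which is wide for small counts, the quartiles of the NMI widths for their median, and the binomial interval for the protein-coding share, which is narrow with 21938 genes. With the outermost TSS alone, 9 collagen genes and 2 fibrillar genes had an NMI, and 42.5% of protein-coding genes did. With NMIs wider than the lower quartile (572.5 bp), 3 fibrillar genes had one (Col4a3, Col5a3 and Col27a1 were lost in all) and 45.3% of protein-coding genes did. The protein-coding share was 46.7% with coding transcripts, 46.4% with basic transcripts, 46.5% when 100 bp each side of the TSS had to lie in the NMI (Col4a3 was lost), 48.2% within 250 bp and 49.0% within 1000 bp. Coding or basic transcripts lost Col1a1 and Col26a1. Within 250 bp or 1000 bp, 2 head-to-head pairs had an NMI at both genes, because Col4a4 was gained. Col6a3 was also gained, and Col14a1 within 1000 bp. Looser island criteria gave 13 collagen islands with an NMI. RefSeq TSSs, an alternative chosen after seeing the data, covered 35 collagen genes and changed the state of none of these. No paired analysis was possible because there was 1 library. With no read depth and no score, weakly captured islands cannot be told from absent ones.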
